A study of Mus musculus with 6 samples.

Results

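The genes described here are 10 genes that mark neurons in the DRG (dorsal root ganglion, where the cell bodies of sensory neurons lie). They were chosen by symbol, and all 10 were found among the 48440 genes counted and passed the filter on low counts, which left 18593 genes for testing. They are the neurofilament genes *Nefl*, *Nefm*, and *Nefh*, the related filament genes *Ina* and *Prph*, the tubulin genes *Tubb3* and *Tuba1a*, and the neuronal genes *Stmn2*, *Uchl1*, and *Rbfox3*. Total RNA was sequenced from DRGs of WT male mice in 2 groups of 3 libraries. The control group received AAV5-*Gfp*, an adeno-associated virus of serotype 5 that carries green fluorescent protein, and the other received AAV5-NIS V1 and V2, a mixture of viruses that carry the transcript variants of *NIS-lncRNA* (AAV5-*V1+V2*). Both were microinjected into the L3/4 DRGs of one side, so the control DRGs also had an injection and a virus. The text deposited with the data gives collection at 5 weeks and also a comparison at 4 weeks, and gives no age. The virus preparation and the transcripts it carried cannot be told apart, and nothing says whether replicates came from separate mice, so p-values measure only the spread between these libraries.

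Neurofilaments are polymers that fill the axon and set its caliber. They are built from the light (NFL), medium (NFM), and heavy (NFH) chains, joined by α-internexin or peripherin, and large myelinated sensory neurons are rich in them, whereas peripherin marks many small ones. Microtubules, polymers of α- and β-tubulin, are the tracks of axonal transport, and stathmins bind their subunits. *Uchl1* encodes the abundant neuronal ubiquitin hydrolase PGP9.5, and *Rbfox3* encodes the splicing factor NeuN, whose antibody stains neuronal nuclei. These transcripts are standard markers of neurons in DRG tissue. Levels here are shares of all counts in a library. In a whole ganglion, fewer neurons, less of a transcript per neuron, and more RNA from other cells cannot be told apart.

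Total counts were between 32025612 and 34764282 per library. The 10 genes together took 1.16%, 1.09%, and 1.13% of all counts in the AAV5-*Gfp* libraries and 0.75%, 1.04%, and 1.05% in the AAV5-*V1+V2* libraries. Values for a group are given in the order of its replicates 1, 2, and 3 throughout. AAV5-*V1+V2* replicate 1 stood apart from the other libraries of its group (chi-square per degree of freedom over genes 34.6 and 52.8, against 9.91 between replicates 2 and 3). Beside the neuronal genes, the summed level of 12 macrophage genes was 293, 284, and 204 CPM (counts scaled to library size and by TMM factors) with AAV5-*Gfp* and 1792, 934, and 629 CPM with AAV5-*V1+V2*. That of 12 lymphocyte genes was 57.8, 34.8, and 34.7 CPM against 704, 417, and 376 CPM. Both immune sums were highest in AAV5-*V1+V2* replicate 1, which had the lowest neuronal levels, and their part in the results below was not tested.

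The starts of 6 of the 10 genes (*Tubb3*, *Tuba1a*, *Prph*, *Ina*, *Uchl1*, and *Rbfox3*) had an entry in the RefSeq promoter table of GRCm38.p6, which gives 250 bases before the start and 50 after it. The 4 printed here, 5′ to 3′ on the strand of the gene, show the starts of both tubulin genes and of peripherin, whose windows hold the letters marked, and of *Rbfox3*, the gene that passed the test. Capitals mark TATAA, the core of the TATA box, searched on the strand of the gene.
*Tubb3*, chr8:123411303-123411602, plus strand: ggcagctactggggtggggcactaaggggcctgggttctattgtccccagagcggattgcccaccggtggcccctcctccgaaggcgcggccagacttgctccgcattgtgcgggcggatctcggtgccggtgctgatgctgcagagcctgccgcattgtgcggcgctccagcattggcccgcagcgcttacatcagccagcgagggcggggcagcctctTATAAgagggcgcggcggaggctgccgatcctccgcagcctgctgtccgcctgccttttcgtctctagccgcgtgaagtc
*Tuba1a*, chr15:98953452-98953751, minus strand: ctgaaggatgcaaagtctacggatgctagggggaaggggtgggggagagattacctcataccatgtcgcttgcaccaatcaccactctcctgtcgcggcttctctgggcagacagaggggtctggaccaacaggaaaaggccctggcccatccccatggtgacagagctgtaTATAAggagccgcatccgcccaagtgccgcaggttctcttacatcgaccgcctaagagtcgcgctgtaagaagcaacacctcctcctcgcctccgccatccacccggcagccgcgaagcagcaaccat
*Prph*, chr15:99054924-99055223, plus strand: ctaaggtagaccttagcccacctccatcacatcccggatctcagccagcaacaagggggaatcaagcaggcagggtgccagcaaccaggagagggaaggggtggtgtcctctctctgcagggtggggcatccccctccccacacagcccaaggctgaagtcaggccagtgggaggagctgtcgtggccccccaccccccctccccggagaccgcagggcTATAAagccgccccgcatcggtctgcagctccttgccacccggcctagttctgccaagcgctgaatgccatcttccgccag
*Rbfox3*, chr11:118760992-118761291, minus strand: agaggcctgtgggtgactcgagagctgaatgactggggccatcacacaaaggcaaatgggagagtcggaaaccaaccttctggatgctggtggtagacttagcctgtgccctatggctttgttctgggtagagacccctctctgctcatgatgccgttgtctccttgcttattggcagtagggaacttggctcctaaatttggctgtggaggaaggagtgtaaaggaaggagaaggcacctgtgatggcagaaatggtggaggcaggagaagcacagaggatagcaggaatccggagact

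The letters TATAA began at position -30 from the start in *Tubb3*, -31 in *Prph*, and -78 in *Tuba1a*, and were not in the windows of *Rbfox3*, *Uchl1*, or *Ina*. Of 32851 promoters of the same length, 17.5% held TATAA on the strand of the gene. The letters GGGCGG, the core of the GC box, searched on both strands, occurred at 2 positions in *Tubb3* and in *Ina*, 1 in *Tuba1a* and in *Prph*, and 0 in *Rbfox3* and *Uchl1*, and were in 35.7% of all promoters. The GC content was 67.3% in *Tubb3*, 64.7% in *Prph*, 59.0% in *Tuba1a*, and 53.0% in *Rbfox3*, beside a median of 52.7%. These letters were chosen after the sequences were seen. The *Rbfox3* window lies inside the gene as GENCODE M21 draws it, so that RefSeq places this start elsewhere than the end of that gene model. The GENCODE models of *Tubb3* and *Tuba1a* begin upstream of the marked letters, so the positions given for them hold for the RefSeq starts only.

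Per kilobase of exon, the tubulin *Tuba1a* had the highest level of the 10 genes, and the light neurofilament gene *Nefl* stood above its partners by this measure. With AAV5-*Gfp*, the level per length was 1384 ± 60.2 CPM per kb (SD, n = 3) for *Tuba1a*, 784 ± 30.1 for *Tubb3*, and 653 ± 24.1 for *Nefl*. *Uchl1* (427 ± 25.2 CPM per kb) and *Nefm* (389 ± 27.7) overlapped between libraries, as did *Prph* (278 ± 20.2) and *Nefh* (278 ± 39.1). *Stmn2* followed at 107 ± 6.16, *Rbfox3* at 17.5 ± 3.69, and *Ina* at 3.65 ± 0.44 CPM per kb. Among 15458 protein-coding genes, this placed *Tuba1a* at rank 2, *Tubb3* at 7, and *Nefl* at 10, whereas *Rbfox3* was at 1950 and *Ina* at 8263. The order of the 10 genes with AAV5-*V1+V2* was the same, although *Tubb3*, *Nefl*, *Uchl1*, *Nefm*, and *Prph* then each overlapped the next gene in that order. Divided by the longest transcript instead, *Nefm* (611 CPM per kb) lay above *Uchl1* (592) and overlapped *Nefl* between control libraries. Apart from *Rbfox3* and *Ina*, the neuronal genes described here were thus at a high level in the control tissue, down to *Stmn2* at rank 153. Of 8 markers of central glia, 6 had 0 to 9 counts per library, among them *Olig1* and *Olig2*, whereas *Aqp4* had 132 to 225 and *Slc1a2* had 515 to 619.

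**Figure D1:**
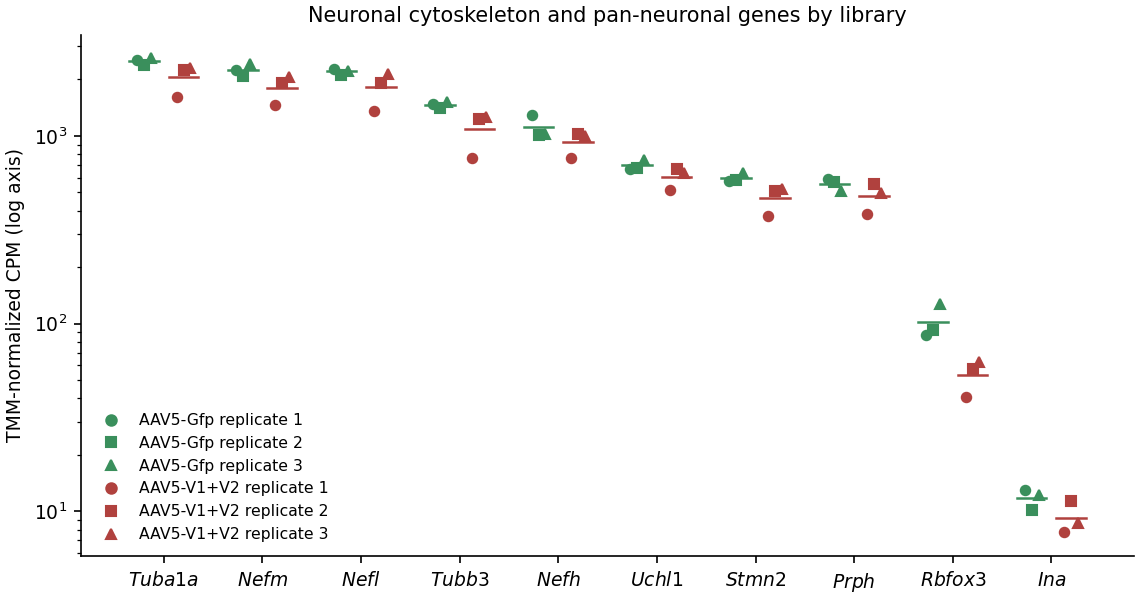
TMM-normalized CPM (log axis) of each of the 10 genes in each library, with AAV5-*Gfp* in green, AAV5-*V1+V2* in red, a symbol for each replicate number, and a line at each group mean. In all 10 genes the lowest point is AAV5-*V1+V2* replicate 1.

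All 10 genes had a log2 fold change below 0 in AAV5-*V1+V2* DRGs, as did 9305 of all 18593 genes tested. Of the 10, 1 (*Rbfox3*) fell with an adjusted p under 0.05 (edgeR's quasi-likelihood test, Benjamini-Hochberg adjustment over all genes tested), where 5.27% of all genes were lower. None of the 10 was higher, compared with 10.1% of all genes. At an unadjusted p under 0.05, 2 of the 10 (*Rbfox3* and *Stmn2*) were lower, beside 15.5% of all genes, and 0 were higher, beside 19.2%. The median log2 fold change of the 10 genes was -0.30, or -0.28 without *Rbfox3*, and that of all genes was -0.0003. In *Nefm*, *Tubb3*, *Tuba1a*, *Stmn2*, and *Rbfox3*, every AAV5-*V1+V2* library lay below every AAV5-*Gfp* library, as in 22.0% of all genes. AAV5-*V1+V2* replicate 1 was the lowest of the 6 libraries in 10 of the 10 genes and in 33.3% of all genes.

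The 3 neurofilament genes had log2 fold changes between -0.31 and -0.26 in AAV5-*V1+V2* DRGs, and none of them passed the test. *Nefl*, the light chain on which the filament is assembled, is a gene of 4 exons on the plus strand of chromosome 14 (GRCm38, 68083863 to 68089095). Its level was 2285, 2123, and 2215 CPM with AAV5-*Gfp* and 1366, 1921, and 2150 CPM with AAV5-*V1+V2*. The groups overlapped, since AAV5-*V1+V2* replicate 3 was above AAV5-*Gfp* replicate 2. The means were 2208 ± 81.5 and 1812 ± 403 CPM (SD, n = 3 each), with a log2 fold change of -0.28 (SE 0.17, adjusted p = 0.282 by edgeR's test). *Nefm*, the medium chain, lies beside it on the minus strand (68082590 to 68124846), and the annotated exons of this pair share 1108 bases on opposite strands. Because the use of strand in the counting is not given, reads from those bases could have been split between both genes. *Nefm* was at 2239, 2094, and 2414 CPM with AAV5-*Gfp* and at 1456, 1905, and 2066 CPM with AAV5-*V1+V2*. Here the groups were separate, and the log2 fold change was -0.31 (SE 0.15, adjusted p = 0.192 by edgeR's test). *Nefh*, the heavy chain, whose long phosphorylated tail projects from the filament, lies on chromosome 11 (4938754 to 4948064, minus strand). It was at 1291, 1013, and 1029 CPM with AAV5-*Gfp* and 768, 1019, and 994 CPM with AAV5-*V1+V2*. AAV5-*Gfp* replicate 1 was the highest library, AAV5-*V1+V2* replicate 1 was the lowest, and the other 4 libraries lay together (log2 fold change -0.26, SE 0.15, adjusted p = 0.261 by edgeR's test).

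The proportions of the neurofilament chains overlapped between the groups. Within a library, the ratio of *Nefh* to *Nefl* counts was 0.565, 0.477, and 0.465 with AAV5-*Gfp* and 0.562, 0.531, and 0.462 with AAV5-*V1+V2*. For *Nefm* to *Nefl* the ratio was 0.980, 0.986, and 1.09 against 1.07, 0.992, and 0.961. Both ranges overlapped, and even AAV5-*V1+V2* replicate 1, with the lowest levels of all 3 chains, had both ratios inside the AAV5-*Gfp* range. The differences in mean log2 ratio were 0.05 (exact two-sided permutation test, p = 1) and -0.02 (p = 0.7, same exact test). The smallest p that 3 libraries against 3 allow is 0.1, so these tests could not pass 0.05.

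*Prph* and *Ina* encode the partners of the neurofilament chains. *Prph* (chromosome 15, 99055174 to 99058978, plus strand) was at 590, 568, and 512 CPM with AAV5-*Gfp* and 386, 553, and 497 CPM with AAV5-*V1+V2*. AAV5-*V1+V2* replicate 2 lay within the control range, so the groups overlapped (log2 fold change -0.22, SE 0.14, adjusted p = 0.310 by edgeR's test). The ratio of *Nefh* to *Prph* counts, which sets a gene of large myelinated neurons against a gene common in small ones, was 2.19, 1.78, and 2.01 with AAV5-*Gfp* and 1.99, 1.84, and 2.0 with AAV5-*V1+V2* (difference -0.03 on the log2 scale, exact two-sided permutation test, p = 0.8). Every AAV5-*V1+V2* ratio lay inside the range of the control libraries. *Ina* (chromosome 19, 47014698 to 47025327, plus strand) had the fewest reads of the 10 genes, 419, 354, and 382 with AAV5-*Gfp* and 254, 377, and 296 with AAV5-*V1+V2*. In CPM these were 13.0, 10.2, and 12.2 against 7.72, 11.3, and 8.63, with overlap between the groups and a log2 fold change of -0.36 (SE 0.17, adjusted p = 0.173 by edgeR's test). Of its exonic bases, 456 overlap *Nt5c2* on the opposite strand, so its counts are uncertain to that extent.

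Both tubulin genes were lower in every AAV5-*V1+V2* library than in any AAV5-*Gfp* library, without passing the test. *Tubb3*, the neuronal β-tubulin recognized by the antibody TUJ1, lies on chromosome 8 (123411424 to 123422015, plus strand), and its GENCODE model begins inside the window printed above. It was at 1482, 1401, and 1510 CPM with AAV5-*Gfp* and 768, 1233, and 1266 CPM with AAV5-*V1+V2*, or 1464 ± 56.2 against 1089 ± 279 CPM (SD, n = 3 each). AAV5-*V1+V2* replicate 1 was 47.6% below the control mean, and replicates 2 and 3 were 15.8% and 13.5% below it. The log2 fold change of *Tubb3* was -0.43 (SE 0.19, adjusted p = 0.158 by edgeR's test). *Tuba1a*, the main α-tubulin of developing and mature neurons, lies on chromosome 15 (98949837 to 98953703, minus strand). Its level was 2524, 2376, and 2588 CPM with AAV5-*Gfp* and 1620, 2239, and 2289 CPM with AAV5-*V1+V2*, with a log2 fold change of -0.28 (SE 0.16, adjusted p = 0.237 by edgeR's test). The α-tubulin genes are near-identical copies, and 75.5% of the 50-base words of *Tuba1a* transcripts also occur in transcripts of other genes, mainly *Tuba1c*, so its counts are uncertain. The log2 ratio of *Tuba1a* to *Tubb3* was 0.77, 0.76, and 0.78 in the control libraries and 1.08, 0.86, and 0.85 in the others. That of *Nefl* to *Tubb3* was 0.62, 0.60, and 0.55 against 0.83, 0.64, and 0.76. In both ratios the groups were separate, with differences of 0.16 and 0.15, each with the smallest p the exact permutation test allows (p = 0.1, adjusted over 6 ratios p = 0.3).

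*Stmn2* and *Uchl1* differed in how far they followed the other genes. *Stmn2*, a stathmin family gene of growing and maintained axons, lies on chromosome 3 (8509360 to 8561606, plus strand). It was at 575, 579, and 637 CPM with AAV5-*Gfp* and 375, 510, and 523 CPM with AAV5-*V1+V2*. The groups were separate and the log2 fold change was -0.35 (SE 0.14, adjusted p = 0.124 by edgeR's test). *Uchl1* (chromosome 5, 66676091 to 66687234, plus strand) was at 668, 679, and 744 CPM with AAV5-*Gfp* and 513, 670, and 631 CPM with AAV5-*V1+V2*. AAV5-*V1+V2* replicate 2 lay within the control range, and the log2 fold change was -0.20 (SE 0.12, adjusted p = 0.264 by edgeR's test), the value nearest 0 of the 10 genes. An antisense gene, *Uchl1os*, overlaps 295 exonic bases of *Uchl1*, which may share reads with it.

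*Rbfox3* fell to 0.524 times its level in the control DRGs. The gene spans 422 kb of chromosome 11 (118489762 to 118911597, minus strand) with 15 exons in its longest transcript. Its reads numbered 2813, 3196, and 3950 with AAV5-*Gfp* and 1335, 1914, and 2136 with AAV5-*V1+V2*. In CPM these were 87.2, 92.2, and 127 against 40.6, 57.5, and 62.3, so that the highest AAV5-*V1+V2* library was still below the lowest control. The means were 102 ± 21.4 and 53.4 ± 11.4 CPM (SD, n = 3 each), with a log2 fold change of -0.93 (SE 0.19, adjusted p = 0.0256 by edgeR's test), which is 47.6% lower. AAV5-*V1+V2* replicates 1, 2, and 3 were 60.2%, 43.6%, and 38.9% below the control mean. The call was kept without AAV5-*V1+V2* replicate 1 (log2 fold change -0.76, adjusted p = 0.0211 by edgeR's test), and without AAV5-*V1+V2* replicate 3 (-1.05, adjusted p = 0.0169). It was lost without AAV5-*Gfp* replicate 1 (log2 fold change -1.03, adjusted p = 0.0556), replicate 2 (-1.0, 0.0848), or replicate 3 (-0.75, 0.0972), and without AAV5-*V1+V2* replicate 2 (-0.98, 0.0574), all by edgeR's test. Total reads in the *Rbfox3* exons do not separate its transcripts, so the start at the window printed above was not measured.

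**Figure D2:**
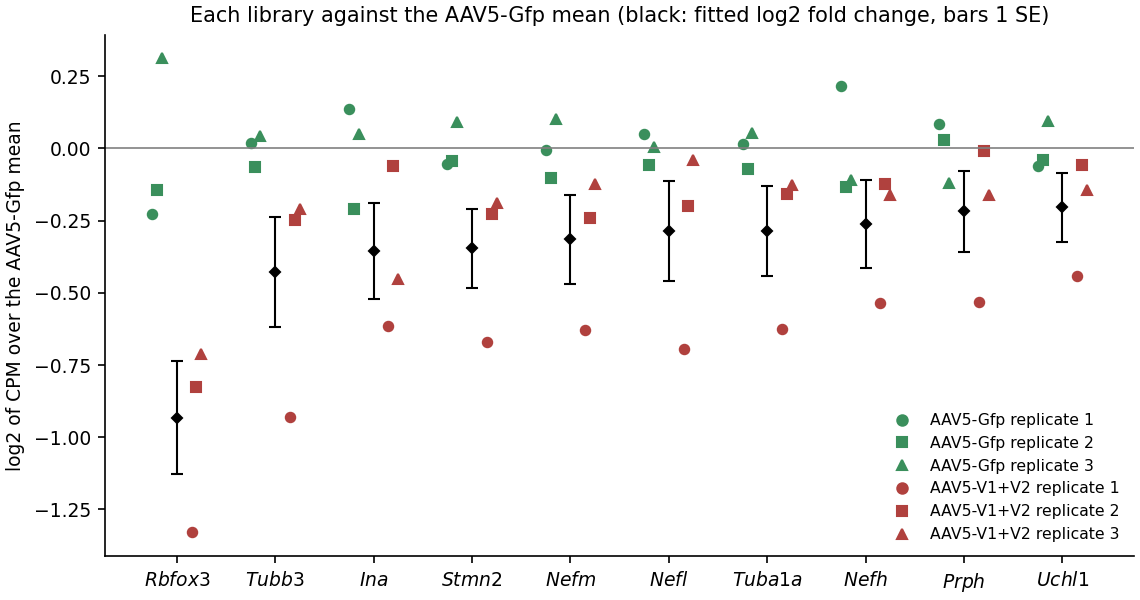
Log2 of the CPM of each library over the AAV5-*Gfp* mean for the 10 genes, ordered by fold change, with AAV5-*Gfp* in green and AAV5-*V1+V2* in red. Black diamonds are the fitted log2 fold changes with bars of 1 SE, and *Rbfox3* at -0.93 lies apart from the other 9, which are between -0.43 and -0.20.

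Leaving out AAV5-*V1+V2* replicate 1 moved the fold changes of the other 9 genes toward 0. *Nefh* moved about as far without AAV5-*Gfp* replicate 1 (from -0.26 to -0.14), and *Ina* moved farther, away from 0, without AAV5-*V1+V2* replicate 2 (from -0.36 to -0.52). Without AAV5-*V1+V2* replicate 1, their log2 fold changes were between -0.24 (*Ina*) and -0.08 (*Prph*). *Nefl* moved from -0.28 to -0.11, *Nefm* from -0.31 to -0.17, *Tubb3* from -0.43 to -0.22, and *Uchl1* from -0.20 to -0.09. All of them kept the direction, and none passed the test (smallest adjusted p = 0.0788 for *Tubb3* by edgeR's test). In that library the neuronal genes were 26.3% (*Uchl1*) to 60.2% (*Rbfox3*) below the control mean, and in replicate 2 the range was from 0.637% (*Prph*) to 43.6% (*Rbfox3*).

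The log2 CPM of the 10 genes was also taken relative to the mean of 64 other neuronal genes of the same library. This scale was chosen after the data were seen. These 64 genes are 12 other tubulins, 18 microtubule-associated and stathmin family genes, 18 genes of axonal motors and of the spectrin and ankyrin scaffold, and 16 other pan-neuronal markers. The median log2 fold changes of these lists ran from -0.29 (other tubulins) to -0.55 (other pan-neuronal markers), so the scale depends on their mix. Whether each gene is specific to neurons was not tested. The mean level of the 64 genes, relative to the AAV5-*Gfp* mean, was -0.04, -0.05, and 0.09 log2 units with AAV5-*Gfp* and -0.63, -0.31, and -0.24 with AAV5-*V1+V2*. On this scale *Rbfox3* was still lower, at -0.16, -0.07, and 0.24 with AAV5-*Gfp* and -0.68, -0.49, and -0.45 with AAV5-*V1+V2*. The groups were separate, with a difference of -0.54 (-0.62 to -0.42 when each library was left out), and p was 0.1 in the exact permutation test, its lower limit (adjusted over the 10 genes p = 0.5). *Uchl1* lay the other way, at -0.02, 0.01, and 0.00 against 0.19, 0.26, and 0.10. Its difference of 0.18 also came with separate groups and p = 0.1 in the exact permutation test (adjusted p = 0.5). The other 8 genes overlapped between the groups, with exact permutation p-values from 0.2 to 0.9. Their differences ran from -0.07 (*Tubb3*) to 0.16 (*Prph*), which is near that of *Uchl1*, and all but that of *Tubb3* were above 0. The ratio of *Rbfox3* to *Tubb3* counts, also chosen after the data were seen, was 0.0588, 0.0658, and 0.0839 with AAV5-*Gfp* and 0.0528, 0.0466, and 0.0492 with AAV5-*V1+V2*. Even beside the most reduced of the other 9 genes, each AAV5-*V1+V2* library thus held fewer *Rbfox3* reads than any control library (difference -0.47 on the log2 scale, exact permutation test, p = 0.1).

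**Figure D3:**
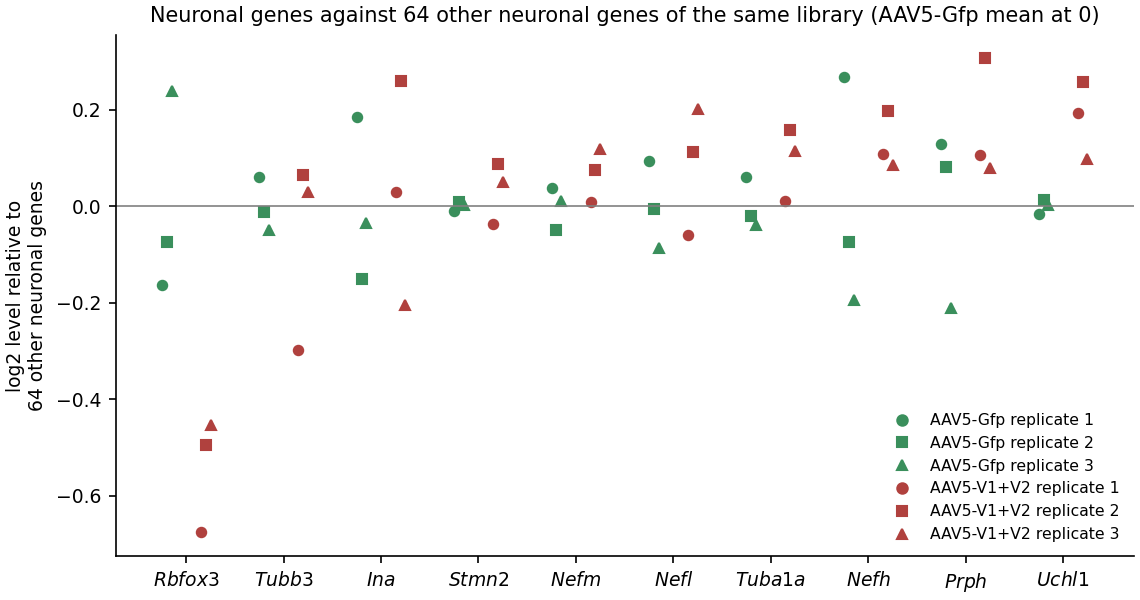
Log2 level of each of the 10 genes relative to the mean of 64 other neuronal genes of the same library, with the AAV5-*Gfp* mean at 0, AAV5-*Gfp* in green, and AAV5-*V1+V2* in red. *Rbfox3* lies at -0.68 to -0.45 and *Uchl1* at 0.10 to 0.26 in the AAV5-*V1+V2* libraries, both apart from the controls, and the other 8 genes overlap.

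The other genes of the neuronal cytoskeleton and the other pan-neuronal markers were mostly lower as well, in lists compiled with earlier results of these data known. Of the 64 genes, 61 had a log2 fold change below 0 (9305 of 18593 over all genes), and their median was -0.40. At an adjusted p under 0.05 (edgeR's test), 16 fell and 0 rose, beside 5.27% and 10.1% of all genes. In 56, every AAV5-*V1+V2* library lay below every AAV5-*Gfp* library, beside 22.0% of all genes. Of the 12 other tubulins 1 fell, *Tubb4a*, a β-tubulin of neurons and myelinating cells (-0.52), and their median was -0.29. Of the 18 microtubule-associated and stathmin family genes 4 fell (median -0.36), among them *Mapt*, which encodes tau (-0.53), *Map1a* (-0.63), and the collapsin response mediator *Dpysl5* (-0.76). Of the 18 genes of motors and scaffold 4 fell (median -0.41), among them *Ank3*, the organizer of the axon initial segment (-0.60), *Sptbn4*, its spectrin partner (-0.53), and the dynein chain *Dync1i1* (-0.60). Of the 16 other pan-neuronal markers 7 fell (median -0.55), among them the synaptic vesicle gene *Syn1* (-0.69) and the RNA-binding gene *Celf4* (-0.58). *Rbfox3* (-0.93, SE 0.19) lay below each of the 64, but not far below the lowest of them (-0.77) or *Dpysl5* (-0.76, SE 0.11). The number of genes that fell was 3 without AAV5-*Gfp* replicate 1 (59 of 18975 over all genes) and 0 without replicate 2 or 3. It was 5 without AAV5-*V1+V2* replicate 2 (150 of 18902 over all genes), 23 without replicate 1 (1095 of 18897), and 32 without replicate 3 (1446 of 18945). In the fits with 0, no gene of the whole table was lower at an adjusted p under 0.05, although 2029 and 1815 were at an unadjusted p under 0.05.

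Genes of other cells of the ganglion are given beside these, as counts of genes called by the same test. Over all genes tested, 10.1% were higher and 5.27% were lower. Of 9 genes of sensory neuron identity tested, 2 fell (*Pou4f1*, -0.43, and *Prdm12*, -0.65) and 1 rose (*Runx3*, 1.60, a factor that is also used by T cells). Of the 13 nerve injury genes, 3 rose (*Atf3*, 0.78, *Csf1*, 0.58, and *Ecel1*, 1.07) and 0 fell. The median of the 13 was 0.14. Their summed level overlapped between the groups, at 196, 203, and 199 CPM with AAV5-*Gfp* and 194, 231, and 193 CPM with AAV5-*V1+V2*. The 8 intermediate filaments of other cells had a median of 0.24, and of these *Gfap*, the filament of glia (0.82), and *Lmnb1*, a nuclear lamin (0.95), rose. Myelinating Schwann cell genes had 0 of 10 called, and the summed level was 3651 to 4488 CPM with AAV5-*Gfp* and 3869 to 4332 CPM with AAV5-*V1+V2*. Satellite glia genes had 1 of 10 higher (*Slc1a3*, 0.35), near the share over all genes, whereas 8 of the 10 had a log2 fold change below 0 (median -0.11). Their sum was 1571 to 1677 CPM with AAV5-*Gfp* against 1294 to 1617 CPM with AAV5-*V1+V2*. Of the immune genes, 11 of 12 macrophage genes (median 1.74) and 11 of 12 lymphocyte genes (median 3.29) rose, among them *C1qa* (1.93) and *Ms4a1* (5.49). Fibroblast genes had 3 of 8 higher (median 0.59), and endothelial genes 1 higher and 1 lower of 8. Skeletal muscle genes had 0 of 7 called, with a sum of 20.6, 370, and 89.7 CPM with AAV5-*Gfp* and 108, 32.4, and 9.24 CPM with AAV5-*V1+V2*, and central glia genes 0 of the 2 tested. The number of calls depended on single libraries, in these lists as in the whole table. Over all genes, 1872 were higher with all libraries, and 257, 12, and 15 were higher without AAV5-*Gfp* replicates 1, 2, and 3. Without AAV5-*Gfp* replicate 2 or replicate 3, 0 macrophage genes and 1 lymphocyte gene were higher, and without replicate 1 the numbers were 4 and 11. Each of these 3 fits left 0 calls in the lists of sensory neuron identity, nerve injury, intermediate filaments, satellite glia, fibroblasts, and endothelium. Without AAV5-*V1+V2* replicate 2, 0 nerve injury, filament, and satellite glia genes were higher (1020 of 18902 over all genes). Without replicate 3, 5 nerve injury, 5 fibroblast, and 0 satellite glia genes were higher (2474 of 18945 over all genes). In that fit 1 satellite glia gene and 1 central glia gene were lower (1446 of 18945 over all genes). Limma-voom called 0 of the filament genes. The part of these cells in the lower neuronal levels was not tested.

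AAV5-*V1+V2* replicate 1 was the lowest of the 6 libraries in all 10 genes, but their patterns over the libraries were not all alike. Centred on its mean, the average log2 CPM of the 10 genes was 0.21, 0.11, and 0.25 with AAV5-*Gfp* and -0.51, -0.02, and -0.04 with AAV5-*V1+V2*. *Tuba1a* (root-mean-square difference 0.0454 log2 units) and *Stmn2* (0.0463) were closest to the mean of the other 9 genes, and *Rbfox3* (0.354) was farthest. Of 5856 other genes that averaged 5 log2 CPM or more, those with the most similar pattern were *Mest* (0.0179), the calmodulin gene *Calm2* (0.0179), *Nrn1*, which encodes neuritin (0.0203), *Ppef1* (0.0204), *Atpif1* (0.0247), and *Stmn3*, another stathmin (0.0250). Their log2 fold changes were between -0.40 and -0.34. These values describe 6 libraries only, and all of them share the low AAV5-*V1+V2* replicate 1.

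The fold changes were also set against gene length, with a division at 50 kb that was chosen after the data were seen, and the shares were not tested. Of the 64 other neuronal genes, 12 of 35 with a genomic span of at least 50 kb fell (34.3%), with a median log2 fold change of -0.43, and 4 of 29 shorter genes fell (13.8%), with a median of -0.31. The rank correlation of fold change and span over these 64 genes was -0.394 (Pearson's r with the log of the span -0.392), a description across genes, which are not independent replicates. Among the 17900 tested genes with a span in the annotation, 14.3% of 5090 long and 1.68% of 12810 shorter genes were lower. Of the 10 genes, 8 are shorter than 50 kb, 0 of them fell, and their median was -0.28. The other 2 are *Stmn2*, just past the division at 52.2 kb (-0.35), and *Rbfox3* at 422 kb (-0.93), with *Nefm* just inside it at 42.3 kb (-0.31).

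**Figure D4:**
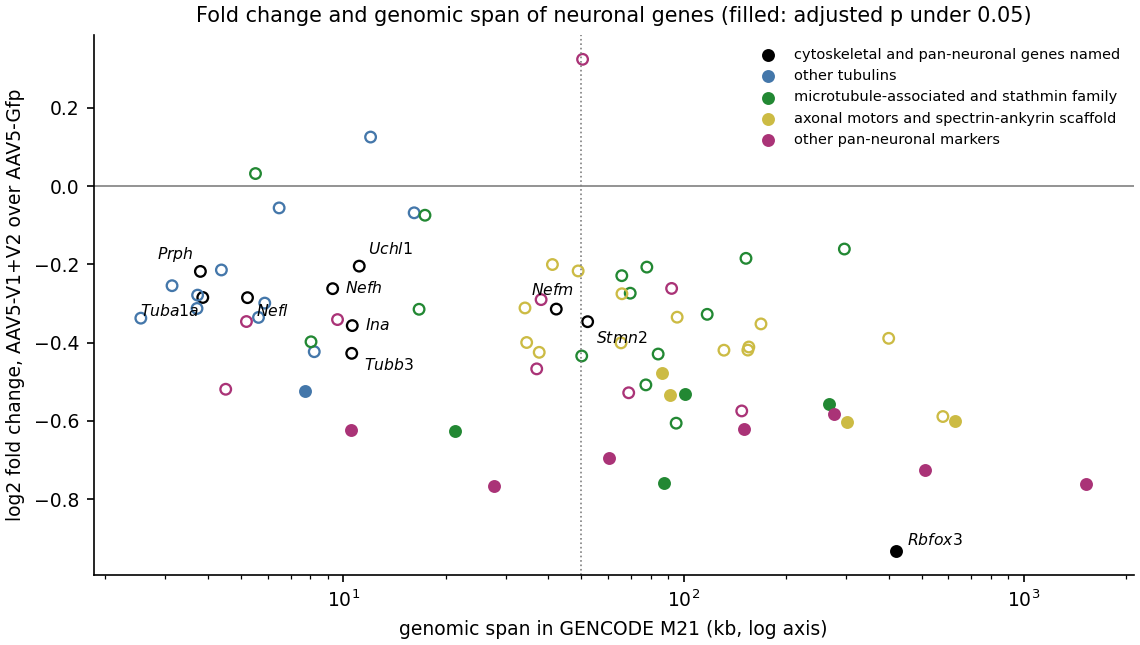
Log2 fold change of the 10 genes (black) and the 64 other neuronal genes (colors by list) against the genomic span in GENCODE M21 (kb, log axis), filled where the adjusted p was under 0.05. The dotted line marks 50 kb, and *Rbfox3* is the lowest point of all.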

How the data were processed

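Gene-level read counts of 6 DRG libraries made with a stranded total RNA kit were deposited by the authors as whole numbers, without normalization. The labels name GRCm38 (mm10). The aligner, the annotation, and the use of strand are not given in the sources used here. Counts of Gm34583 are not reported here. The deposited counts were tested with edgeR 4.0.16 in R 4.3.3, using filterByExpr with the group, TMM, glmQLFit and glmQLFTest without covariates. Benjamini-Hochberg adjustment was over all 18593 genes tested (threshold 0.05). Each SE is the fold change's size over the root of its F statistic. Levels are TMM-normalized CPM, and ratios used a pseudocount of 0.5. The calculation was tested on simulated counts. Gene positions are from GENCODE M21, and promoters from RefSeq. All pairs of libraries within a group differed by more than sampling noise (chi-square per degree of freedom at least 8.83). With 32025612 to 34764282 counts a library, that spread exceeds counting error.

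The 10 genes and the lists were chosen with earlier results of these data known. Named were all 10 genes, from each list the called genes with the smallest p (at most 3) or, with none called, the 2 with the highest count, and the 6 genes closest in pattern. A gene that this rule names is not reported here. Group differences of ratios were tested with exact two-sided permutation tests. Alternatives were RLE, upper-quartile, and no normalization, no filter, a minimum of 10 counts in 3 libraries, a replicate block, limma-voom (limma 3.58.1), DESeq2 1.42.0, and leaving out each library.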

Additional observations from a re-analysis of the deposited data

How the results depend on the processing

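All 10 genes kept a log2 fold change below 0 under each of 14 alternatives (140 of 140 values). *Rbfox3* was between -1.05 and -0.75 and was called in 10 of the 14, with adjusted p-values from 4.46e-05 (DESeq2) to 0.0972. It was lost in 4 of the 6 fits that left out 1 library, and the cause was not tested. The number of the 10 genes that fell thus ranged from 0 to 1. Without AAV5-*Gfp* replicate 2 or 3, no gene of the whole table was lower at an adjusted p under 0.05. The other 9 genes were called in none of the 14 (smallest adjusted p = 0.0534, *Stmn2* in DESeq2). Of the 64 other neuronal genes, 16 fell with all libraries, 39 in DESeq2, and 30 with the replicate number as a block (1 rose under the block). Leaving out each library gave 0 to 32 that fell and 0 to 1 that rose. Leaving out each library also turned the sign of small log2 ratio differences, which ranged from -0.0151 to 0.133 for *Nefh* to *Nefl*, -0.0596 to 0.0323 for *Nefm* to *Nefl*, -0.111 to 0.0364 for *Nefh* to *Prph*, and -0.160 to 0.117 for *Ina* to *Nefl*. Over all genes, 980 were lower with TMM, 1606 in DESeq2, 1341 with the replicate block, 774 by total counts, and 0 to 1446 when a library was left out. Total counts moved the median of all genes by 0.06 at most. Libraries of the same number had correlated deviations of 0.0902, 0.109, and 0.184, each highest with its own number, but not all above 0.1, so the number was not taken as a pairing.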
